A study of Mus musculus with 52 samples.

Results

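The Tie receptors and angiopoietins were followed here as 5 genes, taken by name, of the 49585 genes to which transcripts were assigned. They are the receptors Tek (also called Tie2) and Tie1, the receptor phosphatase Ptprb (VE-PTP) and the secreted ligands Angpt1 and Angpt2. All 5 were measured in every one of the 40 RNA libraries and all 5 passed the filter on low counts in every fit. The study asked how endothelial cells (ECs) of barrier and high-permeability vessels respond when beta-catenin, the effector of canonical Wnt signaling, is stabilized by loss of Ctnnb1 exon 3. All mice were adult males. RNA-seq was made from GFP-positive (ECs) and GFP-negative cells sorted from the cerebellum and from both lobes of the pituitary, anterior and posterior, 24 libraries, and ATAC-seq from the GFP-positive cells, 12 libraries. WT mice for the sorts carried Tie2-GFP, and stabilized mice carried Tie2-GFP, Pdgfb-CreER and BcatEx3fl and had received 4-hydroxytamoxifen as pups, so that in the sorted cells stabilization, the presence of Cre and the drug cannot be told apart. In the RiboTag experiment, 16 libraries, ribosomes of ECs are tagged after Pdgfb-CreER recombination and their RNA is pulled down (bound RNA) from cortex or choroid plexus, with the whole homogenate as input. WT RiboTag mice were RiboTag; Pdgfb-CreER and stabilized mice were RiboTag; Pdgfb-CreER; BcatEx3fl, so here both genotypes carried the Cre. Each group had 2 biological replicates, with the pituitaries of many mice pooled in each.

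Tek is a receptor tyrosine kinase of ECs. Angpt1 is its activating ligand and is made mainly by cells around the vessel, whereas Angpt2 is made by ECs and can block or, in some settings, activate the receptor. Tie1 binds neither ligand strongly and acts as a partner of Tek. Ptprb removes phosphate from Tek and from the cadherin of EC junctions, and the pathway as a whole is known for keeping vessels quiescent and junctions tight.

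The libraries held 12157485 to 37529274 estimated counts in the sorted set and 6409013 to 21399125 in RiboTag. Endothelial identity was checked with 10 markers (Pecam1, Cdh5, Kdr, Flt1, Erg, Emcn, Egfl7, Esam, Eng, Robo4). A gene was called changed at an adjusted p under 0.05 (edgeR's quasi-likelihood test, Benjamini-Hochberg over all genes tested) and a fold change of at least 2. By this rule 10 of 10 were higher in GFP-positive than GFP-negative WT cells of the cerebellum, 9 of 10 in the anterior pituitary and 10 of 10 in the posterior pituitary, and 10 of 10 were higher in bound than input RNA in both RiboTag tissues (median 4.61 on the log2 scale in the cortex and 3.59 in the choroid plexus). Markers of other cells were also higher. In GFP-positive over GFP-negative WT cells 3 of 10 mural markers were higher in the cerebellum (median 1.34, summed level 877 to 1063 TPM against 155 to 355), 3 in the anterior pituitary (1 lower, median 1.38) and 4 in the posterior pituitary (median 1.73), as were 2 of 5 erythrocyte markers in the posterior, 1 of 6 choroid epithelial markers in the posterior and 1 of 5 astrocyte markers in either lobe. The astrocyte list as a whole went the other way, with medians of -1.16 in the anterior and -0.80 in the posterior lobe, where 2 were lower. In RiboTag, of 5 microglia markers (Tmem119, P2ry12, Cx3cr1, Csf1r, Aif1), 5 were higher in bound than input RNA of the WT cortex (median 4.47, summed level 903 to 1271 TPM against 39.02 to 39.4) and 4 in the choroid plexus (median 2.77). Of 6 macrophage and leukocyte markers (Mrc1, Cd163, Lyve1, Ptprc, Cd14, Itgam), 3 were higher in the cortex (median 2.58) and 5 in the choroid plexus (median 2.74). The part of these markers in the results on GFP-positive cells and bound RNA was not tested. The GFP-positive pituitary libraries also held hormone and secretory RNA (summed level of Gh, Prl, Pomc, Tshb, Lhb, Cga and Chga, 346 to 6784 TPM, transcripts per 1000000). The tissue tag of 1 RNA library, replicate 2 of stabilized anterior pituitary ECs, names the posterior lobe while its title and source name the anterior lobe. It was taken as anterior, and the effects of stabilization in anterior pituitary ECs that are named below, with their differences from the posterior lobe, are given with and without it.

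Tek lies at chr4:94739289-94874976 on the plus strand (GRCm38, GENCODE M21), Tie1 at chr4:118471191-118490061 on the minus strand and Ptprb at chr10:116275523-116389535 on the plus strand. Angpt1 lies at chr15:42424723-42676977 and Angpt2 at chr8:18690263-18741562, both on the minus strand. Angpt2 sits inside Mcph1, which is read from the opposite strand, and the start of Angpt1 overlaps the antisense gene Gm17473. Ptprb holds the small genes Gm47625 and Gm26495 on its own strand. Whether the library type that was detected used strand is not given in the sources used here, so reads of overlapping genes may not be fully separated. The promoters of both receptors are printed because open chromatin was found at them in every EC library, and because Tek regulatory DNA drives the GFP of the sort. Capitals mark CAGGAA on either strand (TTCCTG when read on the opposite strand), a core that ETS factors bind. They are the 250 bases before the RefSeq start (RefSeq, GRCm38.p6), chr4:94739039-94739288 on the plus strand for Tek and chr4:118489850-118490099 on the minus strand for Tie1, whose RefSeq start lies inside the GENCODE gene.
Tek promoter: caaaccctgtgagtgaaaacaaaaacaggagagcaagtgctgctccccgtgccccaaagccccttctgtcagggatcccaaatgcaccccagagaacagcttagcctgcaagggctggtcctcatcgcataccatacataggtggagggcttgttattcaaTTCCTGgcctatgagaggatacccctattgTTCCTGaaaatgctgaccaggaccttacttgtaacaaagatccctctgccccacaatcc
Tie1 promoter: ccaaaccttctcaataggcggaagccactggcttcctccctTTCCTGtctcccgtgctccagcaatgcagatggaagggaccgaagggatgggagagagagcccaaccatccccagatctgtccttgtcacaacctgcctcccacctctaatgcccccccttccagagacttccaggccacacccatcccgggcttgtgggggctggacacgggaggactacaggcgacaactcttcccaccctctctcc
The Tek promoter holds CAGGAA at bases 162 to 167 and 192 to 197 from its 5′ end and the Tie1 promoter at bases 42 to 47, all on the reverse strand. This core is present in 25.7% of 32851 promoters of the same length. CCGGAA, the other ETS core searched, the forkhead motif TGTTTAC and the TCF/LEF motifs TTCAAAG and ATCAAAG were not found in either promoter on either strand.

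The first question was in which cells each gene was read. In WT cells sorted from the cerebellum, the receptors and the phosphatase were higher in GFP-positive cells, and neither ligand passed edgeR's test. Tek drives the GFP by which cells were sorted, so its difference is set by the sort and serves as a check of it. Tek was at 861 and 847 CPM (normalised counts per 1000000) in GFP-positive and 3.51 and 5.72 in GFP-negative cerebellar cells. Tie1 was at 204 and 203 CPM against 1.35 and 1.51, a log2 fold change of 7.15 ± 1.58 (SE, adjusted p = 0.00581). Ptprb, at 3249 and 3211 CPM against 13.8 and 25.96, was 7.34 ± 1.15 higher on the log2 scale (adjusted p = 0.000303). These are 3 of 5 genes called, all higher in ECs, beside 11.3% of all 21343 genes called in either direction and 4.46% called higher. Fewer ECs in a sample and less RNA per EC cannot be told apart in such bulk libraries.

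Both pituitary lobes placed the receptors and the phosphatase in the GFP-positive cells as well, and there the ligands separated to opposite sides. In the anterior pituitary all 5 genes were called, 4 higher and 1 lower in ECs, beside 11.3% of all genes (5.46% higher, 5.87% lower). In the posterior pituitary it was again 4 higher and 1 lower, beside 14.5% (7.07% higher, 7.45% lower). Tie1 was at 330 and 383 CPM in WT anterior pituitary ECs against 2.67 and 0 in GFP-negative cells (log2 fold change 8.06 ± 1.64, adjusted p = 0.00312). In the posterior pituitary Tie1 had 16314 and 9544 counts in ECs and 0 and 0 in GFP-negative cells. With a floor of 3 counts per library, this is at least 4676-fold higher. Ptprb was 7.32 ± 1.15 higher in anterior and 9.45 ± 1.26 higher in posterior pituitary ECs on the log2 scale, and Tek 9.08 ± 1.64 and 8.69 ± 1.61. The sizes depended on single libraries. Leaving out 1 in turn gave 7.20 to 16.3 for Tie1, 6.67 to 9.32 for Ptprb and 8.23 to 15.0 for Tek in the anterior pituitary. In the posterior pituitary Tek then ran from 7.87 to 14.3.

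Angpt1 had its highest level of all sorted groups in GFP-negative cells of the anterior pituitary. It stood at 369 and 311 CPM in WT GFP-negative and 16.6 and 5.06 in WT GFP-positive anterior pituitary cells, and the groups did not overlap. The log2 fold change was -4.97 ± 0.98 (adjusted p = 0.00217). In the posterior pituitary Angpt1 was low in both fractions, at 2.31 and 4.49 CPM in GFP-negative cells and 0.09 and 0 in GFP-positive cells. The posterior pituitary difference rested on 179 counts against 3, a ratio of 52.3 (95% interval 17.6 to 256, counting error only). In the cerebellum Angpt1 was at 17.2 and 20.5 CPM in GFP-negative and 8.86 and 5.67 in GFP-positive cells, a log2 difference of -1.37 ± 0.85 that did not pass (adjusted p = 0.36). Angpt2 was higher in the GFP-positive cells, in which mural markers were higher too. It was at 104 and 85.7 CPM against 6.09 and 4.39 in the anterior pituitary (4.18 ± 0.65 on the log2 scale, adjusted p = 0.000257). In the posterior pituitary Angpt2 was at 37.97 and 11.5 CPM against 7.33 and 3.17 (2.23 ± 0.60, adjusted p = 0.015). That call was lost without replicate 1 of the WT posterior pituitary ECs (1.25, adjusted p = 0.236) and without replicate 2 of the GFP-negative cells (1.88, adjusted p = 0.114). In the cerebellum Angpt2 ranged from 26.8 to 79.6 CPM in ECs and stood at 20.1 and 16.8 in GFP-negative cells (1.53 ± 0.58, adjusted p = 0.108). DESeq2 called that difference, and edgeR did so without replicate 1 of the WT cerebellar ECs (2.21, adjusted p = 0.0385), whereas without replicate 2 the value was 0.59 (adjusted p = 0.79).

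**Figure D1:**
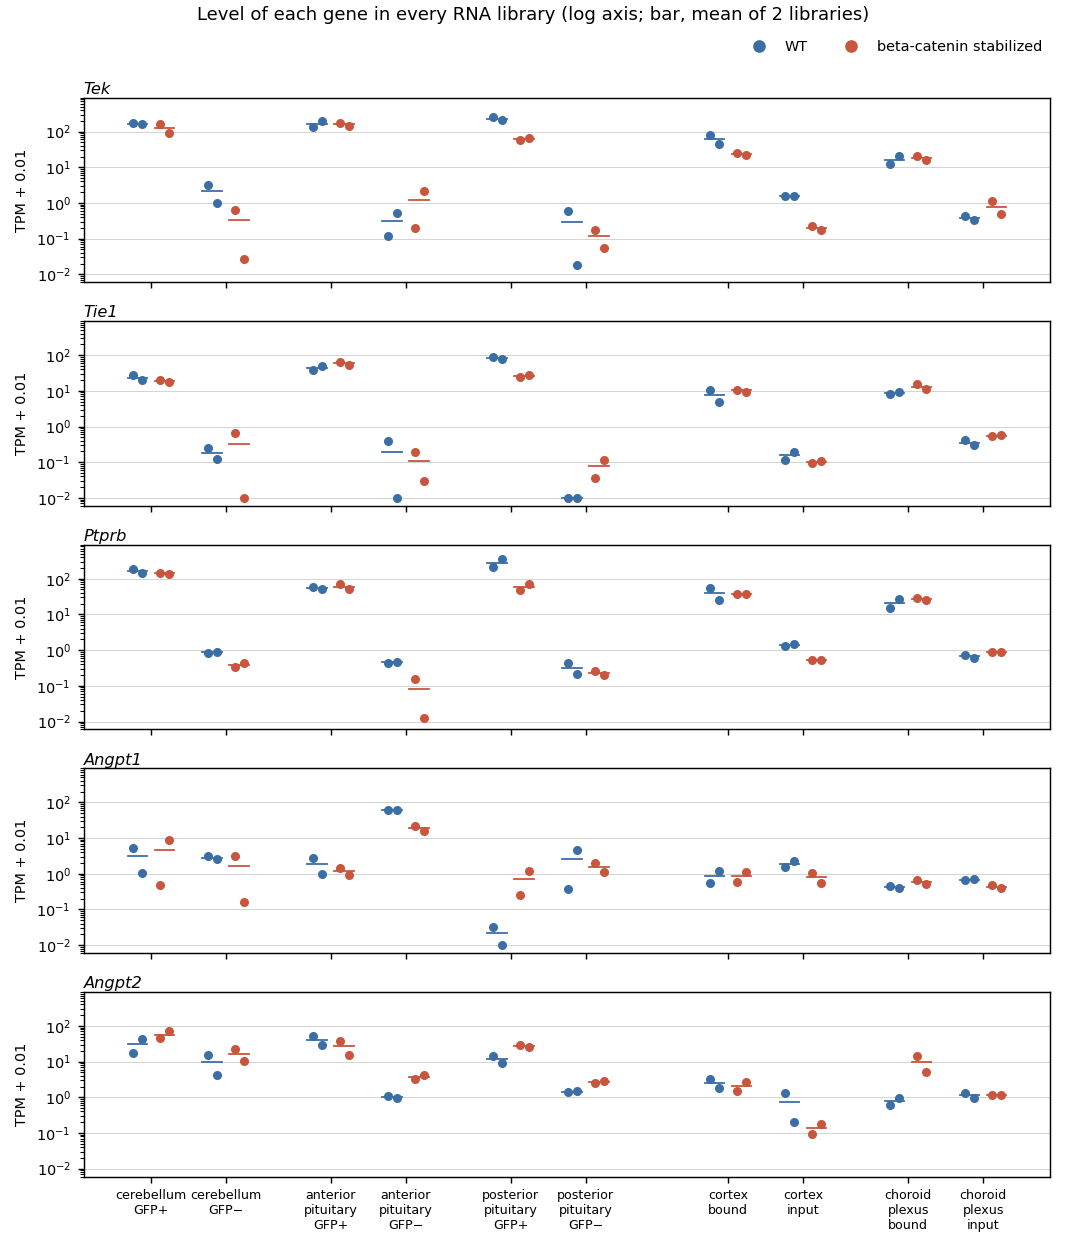
TPM plus 0.01 (log axis) of each gene in all 40 RNA libraries, one panel per gene, by tissue and fraction; blue points are WT and red points stabilized libraries, bars the mean of 2 libraries. Tek, Tie1 and Ptprb lie high in GFP-positive and bound RNA and lower in GFP-negative and input RNA of the same tissue, while Angpt1 peaks in GFP-negative cells of the anterior pituitary at 59.5 and 59.96 TPM in WT.

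RiboTag selects RNA through Pdgfb-CreER and not through Tek, and the microglia and macrophage markers counted above were higher in its bound RNA beside the endothelial ones. In the cortex 4 of 5 genes were higher in bound than input RNA, beside 11.6% of all genes called and 7.46% called higher, and in the choroid plexus 3 of 5, beside 15.3% and 8.67%. Tek was at 250 and 118 CPM in WT cortex bound RNA and 6.87 and 5.57 in input, a log2 fold change of 4.88 ± 0.36 (adjusted p = 1.78e-06). Tie1 was 5.27 ± 0.35 and Ptprb 4.44 ± 0.34 higher in cortex bound RNA. In the choroid plexus Tek was 4.25 ± 0.36, Tie1 3.79 ± 0.32 and Ptprb 3.98 ± 0.33 higher. Angpt2 was higher in cortex bound RNA, at 6.30 and 4.05 CPM against 2.02 and 0.98 in input (1.78 ± 0.50, adjusted p = 0.0299). The cortex Angpt2 call was lost without replicate 1 of the bound RNA (1.64, adjusted p = 0.125) or replicate 2 of the input (1.65, adjusted p = 0.179). In the choroid plexus Angpt2 was at 3.49 and 7.40 CPM in bound RNA and 7.23 and 8.15 in input (-0.50 ± 0.49, adjusted p = 0.527). Angpt1 was at 2.16 and 5.43 CPM in WT cortex bound RNA and 8.59 and 12.0 in input, a log2 difference of -1.44 ± 0.54 that did not pass (adjusted p = 0.0889). The choroid plexus gave -1.55 ± 0.56 (adjusted p = 0.0709 by edgeR), which DESeq2 called. In the cortex bound to input comparison the median of all genes was -0.33 on the log2 scale and moved by up to 0.33 with the scaling, so the cortex values are to be read against that shift.

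Levels were next compared between genes per length, as TPM. In WT posterior pituitary ECs Ptprb stood at 283 TPM ± 108 (SD, n = 2), Tek at 229 ± 28.7, Tie1 at 82.4 ± 6.999, Angpt2 at 11.5 ± 3.42 and Angpt1 at 0.01 ± 0.02. In WT cerebellar ECs Tek (168 TPM ± 2.96) and Ptprb (163 ± 30.7) were not separable, and Angpt2 (30.7 ± 18.2) and Tie1 (23.2 ± 5.18) were not separable either. In WT anterior pituitary ECs Tek (163 TPM ± 42.4) stood above Ptprb (56.4 ± 5.81), and the ranges of Tie1 (44.8 ± 8.67) and Angpt2 (39.9 ± 16.2) overlapped. Across the 6 groups of sorted ECs Tek was lowest in stabilized posterior pituitary ECs, at 63.0 TPM ± 6.75, below all others without overlap, and it was lowest by normalised counts as well. By TPM, WT posterior pituitary ECs were highest of these groups for Tek, Tie1 and Ptprb, each without overlap with the next group. By normalised counts, which were used here to compare samples, this order did not hold. Tek was at 941 and 972 CPM there against 907 and 1029 in WT anterior pituitary ECs, Tie1 at 509 and 581 against 463 and 561 in stabilized anterior pituitary ECs, and Ptprb at 2492 and 4237 against 3314 and 3361 in WT cerebellar ECs, so that each overlapped another group.

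Part of each TPM came from short transcripts without a full reading frame, which weigh more per count in TPM. The processed transcript Tek-204 took 46.3 to 57.7% of Tek TPM in WT and 0 to 12.7% in stabilized cortex bound RNA. Angpt2-202, also a processed transcript, took 76.6 to 79.6% of Angpt2 TPM in WT cerebellar ECs. Ptprb-201, which encodes the protein, took 95.1 to 98.1% of Ptprb TPM in WT cerebellar and 50.8 to 80.5% in WT posterior pituitary ECs, where the retained-intron transcript Ptprb-202 took 14.9 to 22.5%. Tie1-201 took 93.4 to 94.5% of Tie1 TPM in WT cerebellar and 69.8 to 74.9% in WT anterior pituitary ECs. Comparisons between samples used counts summed per gene, which are not corrected for such shifts in transcript share. An offset for gene length was run as an alternative. In cortex bound RNA Tek was at 81.2 and 43.6 TPM in WT and 24.4 and 22.3 in stabilized samples. Its log2 difference there was 0.36 by counts and -0.41 with the offset, so its direction depended on this choice.

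Barrier and high-permeability vessels were compared in WT ECs. The cerebellum has a blood-brain barrier, whereas vessels of the posterior pituitary, a circumventricular organ, and of the anterior pituitary are permeable. Ptprb set the anterior lobe apart. It was at 3314 and 3361 CPM in cerebellar, 768 and 818 in anterior pituitary and 2492 and 4237 in posterior pituitary ECs. Ptprb was higher in cerebellar than anterior pituitary ECs by 2.07 ± 0.31 on the log2 scale (adjusted p = 0.00127). It was also lower in anterior than posterior pituitary ECs (-2.09 ± 0.31, adjusted p = 0.00626), a call lost in a fit of only the groups compared (adjusted p = 0.089). Between cerebellum and posterior pituitary the difference was -0.01 (95% interval -0.67 to 0.64).

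Tie1 was lowest in the barrier tissue. It was at 208 and 213 CPM in cerebellar ECs, while the anterior lobe had 343 and 395 and the posterior lobe 509 and 581, with no overlap between the tissues. The difference between cerebellum and posterior pituitary was -1.37 ± 0.24 (adjusted p = 0.0039), a call lost in a fit of only the groups compared (adjusted p = 0.101). That between cerebellum and anterior pituitary did not pass (-0.81 ± 0.23, adjusted p = 0.071), nor did that between the lobes (-0.56 ± 0.23, adjusted p = 0.382). Tek levels lay between 878 and 1029 CPM in all 6 WT EC libraries. Its differences were -0.13 (95% interval -0.67 to 0.40) for cerebellum over anterior pituitary and -0.12 (-0.65 to 0.42) for cerebellum over posterior pituitary.

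Angpt1 was close to absent from WT posterior pituitary ECs. It was at 9.04 and 5.94 CPM in cerebellar and 17.2 and 5.22 in anterior pituitary ECs, against 0.09 and 0 in the posterior pituitary. The cerebellum to posterior pituitary difference was called (7.01 ± 1.72 on the log2 scale, adjusted p = 0.0368). By counts it was 470 against 3, a ratio of 125 (95% interval 42.4 to 607). Without replicate 1 of the WT cerebellar ECs the adjusted p was 0.0735, and without replicate 2 of the WT posterior pituitary ECs it was 0.116. The lobes differed by a larger count ratio, 183 (62.5 to 892), which did not pass over all genes by edgeR (adjusted p = 0.0716). Angpt2 was at 27.3 and 83.3 CPM in cerebellar ECs, while the anterior lobe had 108 and 88.4 and the posterior lobe 39.5 and 11.9, and no pair of tissues passed by edgeR (anterior over posterior 1.93 ± 0.55, adjusted p = 0.159). DESeq2 called Angpt1 and Angpt2 between the lobes, and so did edgeR without replicate 1 of the WT posterior pituitary ECs (adjusted p = 0.0339 for Angpt1, and 3.05 with an adjusted p of 0.0058 for Angpt2). Called genes thus numbered 1 of 5 for cerebellum over anterior pituitary (5.26% of all genes, 3.0% called higher), 2 of 5 for cerebellum over posterior pituitary (4.4%, with 2.3% higher and 2.1% lower) and 1 of 5 between the lobes (0.994%, 0.653% lower). These comparisons share libraries. Mural cell markers were unequal between the same libraries, with a summed level of 10 genes of 877 to 1063 TPM in WT cerebellar, 191 to 225 in anterior and 84.3 to 163 in posterior pituitary ECs, and 5 of 10 were called higher in the cerebellum than in each lobe (1 lower than in the anterior lobe). Endothelial markers were unequal too. In cerebellar ECs 4 of 10 were lower than in posterior pituitary ECs (median -0.62), the direction of the Tie1 difference, and 1 was higher and 1 lower than in anterior pituitary ECs (median -0.41). Of 7 endocrine markers 5 were lower in cerebellar than anterior pituitary ECs (median -8.01) and 2 lower than in posterior pituitary ECs (median -1.19), and of 5 erythrocyte markers 2 and 1 were higher. Of 4 oligodendrocyte markers 1 was higher in cerebellar ECs than in each lobe (medians 6.59 and 3.83). Of 5 astrocyte markers 1 was lower than in each lobe (medians 2.22 and 3.64). Also lower were 1 of 5 macrophage and leukocyte markers against the anterior lobe (median -0.17) and 1 of 6 choroid epithelial markers against the posterior (median 1.73). Between the lobes 3 of 7 endocrine markers were higher in anterior than posterior pituitary ECs (median 9.20), as were 2 of 10 mural markers (1 lower) and 1 of 5 macrophage and leukocyte markers, and 1 of 10 endothelial markers was lower (median -0.29). The part of these markers in the Ptprb, Tie1, Angpt1 and other differences was not tested.

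In WT bound RNA none of the 5 genes was called between cortex and choroid plexus by edgeR as run here, beside 29.7% of all genes. Tie1 alone had an unadjusted p under 0.05. It was at 72.6 and 33.0 CPM in cortex and 101 and 107 in choroid plexus (-0.97 ± 0.34, adjusted p = 0.0548), and 5 of 6 other settings called it, with values from -1.37 to -1.05 (DESeq2, and edgeR with RLE normalization, with the replicate block, with an offset for gene length or with genes of low count kept). Without replicate 1 of the cortex bound RNA it was -1.64 (adjusted p = 0.0015), and without replicate 2 it was -0.57 (adjusted p = 0.177). Endothelial markers moved the same way, 3 of 10 lower and 1 higher in cortex (median -0.89), as did 6 of 6 choroid epithelial (median -8.46), 5 of 5 fibroblast (median -2.82) and 2 of 10 mural markers. Higher in cortex were 5 of 5 microglia (median 3.57), 5 of 5 neuron (4.67), 5 of 5 oligodendrocyte (3.88) and 4 of 5 astrocyte markers (2.81). Their part in the Tie1 difference was not tested. The remaining 4 genes had log2 differences between -0.01 and 0.45.

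The main question was the response of each gene to beta-catenin stabilization. In posterior pituitary ECs 1 of 5 genes was called, Ptprb, beside 1.79% of all 17915 genes tested and 0.541% called lower. Ptprb was at 2492 and 4237 CPM in WT against 950 and 1379 in stabilized posterior pituitary ECs, so that every stabilized library lay below every WT library. The log2 fold change was -1.53 ± 0.31 (adjusted p = 0.0286). The call was lost without either of 2 of the 4 libraries: without replicate 2 of the WT the value was -1.07 (adjusted p = 0.0866), and without replicate 1 of the stabilized ECs it was -1.29 (adjusted p = 0.193). Tek was at 941 and 972 CPM in WT against 483 and 629 in stabilized posterior pituitary ECs, a non-overlapping difference of -0.78 ± 0.25 (adjusted p = 0.161). Tie1 was at 509 and 581 against 350 and 399 CPM (-0.54 ± 0.23, adjusted p = 0.341).

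The ligands pointed the other way in the same tissue without passing. Angpt2 was at 39.5 and 11.9 CPM in WT against 78.5 and 83.02 in stabilized posterior pituitary ECs (1.65 ± 0.55, adjusted p = 0.187). Without replicate 1 of the WT, the higher of the WT pair, the Angpt2 difference was 2.78 (adjusted p = 0.0091). Angpt1 had 3 counts in the WT pair and 81 in the stabilized pair, a ratio of 31.9 (95% interval 10.5 to 158), with an adjusted p of 0.161. DESeq2 called Angpt1 and Angpt2 in addition to Ptprb, and all 5 genes had an unadjusted p under 0.05. Endothelial markers moved in these libraries too: 2 of 10 were lower (Pecam1 by -1.07 and Kdr by -1.89 on the log2 scale), the median of the 10 was -0.46, and their summed level was 5757 to 8000 TPM in WT against 2164 to 2465 in stabilized posterior pituitary ECs. Microglia markers had a median of 7.41 with 1 of 5 called higher (Csf1r), and their summed level was 0.45 to 0.86 TPM in WT against 38.02 to 38.3 in stabilized ECs. The 5 macrophage and leukocyte markers tested had a median of 3.98 with none called, at 0.88 to 8.65 against 15.6 to 22.9 TPM in sum. Of 10 mural markers 1 was higher (Notch3) and 1 lower (Pdgfrb), with a median of -0.72. The part of these marker shifts in the differences of the 5 genes was not tested.

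In anterior pituitary and cerebellar ECs none of the 5 genes was called by edgeR or DESeq2, and none had an unadjusted p under 0.05, beside 0.458% and 0.648% of all genes called. In anterior pituitary ECs Tek was at 907 and 1029 CPM in WT and 739 and 759 in stabilized ECs (-0.37 ± 0.25, adjusted p = 0.73). Tie1 was at 343 and 395 against 463 and 561 CPM (0.47 ± 0.23, adjusted p = 0.698). Angpt2 was at 108 and 88.4 against 57.3 and 42.2 CPM (-0.98 ± 0.54, adjusted p = 0.698). These 3 pairs did not overlap, and the direction for Angpt2 was opposite to that in the posterior lobe. Ptprb was at 768 and 818 against 910 and 911 CPM (0.20, 95% interval -0.46 to 0.86) and Angpt1 at 17.2 and 5.22 against 6.66 and 5.603 CPM (-0.87 ± 1.29). Without the library with conflicting labels the values were -0.38 for Tek, 0.34 for Tie1, -0.74 for Angpt1, -0.77 for Angpt2 and 0.21 for Ptprb, again with none called. Microglia markers had a median of 4.49 in this comparison and macrophage and leukocyte markers one of 4.18, with none called, and 1 of 10 mural markers was higher, and their part was not tested.

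In cerebellar ECs Tek was at 878 and 886 CPM in WT and 925 and 719 in stabilized ECs (-0.10, 95% interval -0.63 to 0.43). Ptprb was at 3314 and 3361 against 3179 and 3078 CPM (-0.09, -0.75 to 0.56) and Tie1 at 208 and 213 against 189 and 162 CPM (-0.26, -0.76 to 0.24). Angpt2 was at 27.3 and 83.3 against 102 and 104 CPM, the WT pair differing from each other by more than the stabilized pair lay above the higher of them (0.90 ± 0.54, adjusted p = 0.561). Leaving out 1 WT library gave 0.34 without replicate 1 and 1.91 without replicate 2, neither of them called. Angpt1 was at 9.04 and 5.94 against 2.48 and 17.5 CPM, with overlapping groups.

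**Figure D2:**
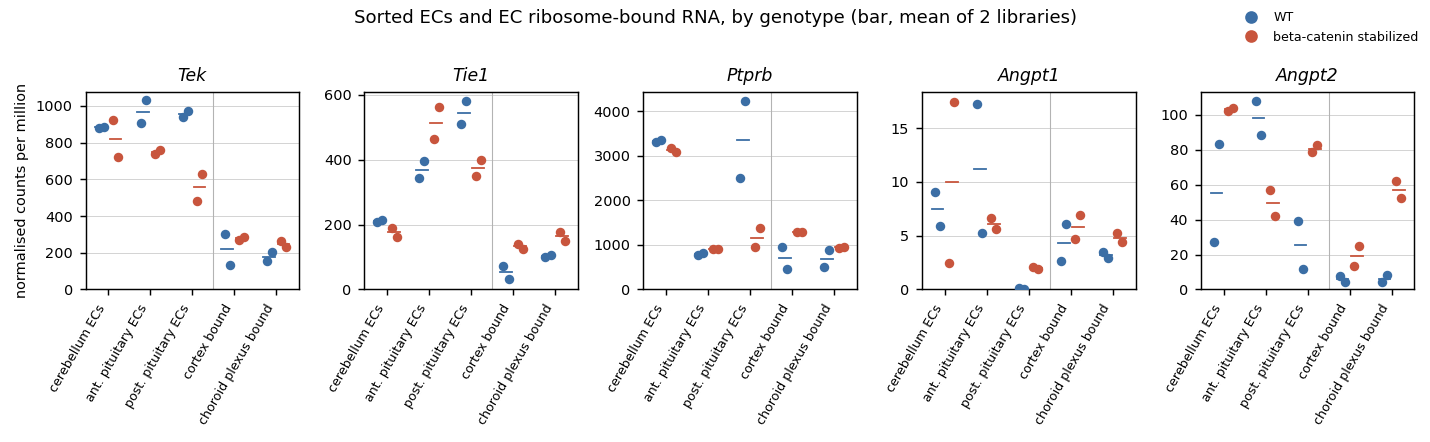
Normalised CPM (linear axes from 0) of each gene in sorted ECs of 3 tissues and in bound RNA of 2 tissues, WT in blue and stabilized in red, bars the mean of 2 libraries; sorted and bound sets were normalised separately. Ptprb falls from 2492 and 4237 to 950 and 1379 in posterior pituitary ECs, and Angpt2 rises from 4.00 and 8.28 to 62.3 and 52.2 in choroid plexus bound RNA.

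RiboTag gave 1 call in each tissue. In the choroid plexus this was Angpt2, 1 of 5 genes beside 0.852% of all 16775 genes and 0.656% called higher. It was at 4.00 and 8.28 CPM in WT and 62.3 and 52.2 in stabilized bound RNA, and the groups were far apart. The log2 fold change was 3.22 ± 0.53 (adjusted p = 0.0276). Without replicate 1 of the WT it was 2.81 (adjusted p = 0.0963) and without replicate 1 of the stabilized it was 3.15 (adjusted p = 0.0541). Of the deposited estimates 29 and 60 counts lay behind the WT levels and 356 and 454 behind the stabilized levels. In choroid plexus input Angpt2 stood at 6.92 and 7.48 CPM in WT and 7.36 and 6.81 in stabilized samples (-0.02, 95% interval -0.98 to 0.93). Tek (0.47), Tie1 (0.66), Ptprb (0.46) and Angpt1 (0.60) had positive log2 differences in choroid plexus bound RNA that did not pass, with adjusted p from 0.426 to 0.832. The 10 endothelial markers had a median of 0.79 in the same comparison with none called, and a summed level of 514 to 633 TPM in WT and 915 to 1270 in stabilized bound RNA. Of 5 astrocyte markers 1 was higher (median 0.54). The part of these marker shifts in the Angpt2 difference was not tested.

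In the cortex the called gene was Tie1, 1 of 5 genes beside 6.32% of all genes and 3.65% called higher. Tie1 was at 72.6 and 33.0 CPM in WT and 142 and 126 in stabilized cortex bound RNA (1.34 ± 0.34, adjusted p = 0.0499). This lies at the edge of the threshold and was lost without replicate 2 of the WT (0.90, adjusted p = 0.0888) or either stabilized library (1.24 and 1.39, adjusted p = 0.184 and 0.112). The endothelial markers moved with it: 3 of 10 were called higher (Eng, Egfl7 and Robo4), their median was 1.18, and their summed level was 559 to 1390 TPM in WT and 994 to 1156 in stabilized bound RNA. Microglia markers summed to 903 to 1271 TPM in WT and 394 to 421 in stabilized cortex bound RNA, although by counts their median was -0.07 with none called. Of the other lists, 1 of 5 fibroblast markers was higher (median 1.04), 2 of 5 neuron markers were lower (median -1.14), and 1 of 5 erythrocyte (median -2.38) and 1 of 6 choroid epithelial markers (median 0.03) were lower. The part of these lists in the Tie1 difference was not tested. Angpt2 was at 7.68 and 4.51 against 13.2 and 24.9 CPM (1.65 ± 0.50, adjusted p = 0.0863), and DESeq2 called it. Over 6 other settings the Angpt2 value ran from 0.76 to 1.69. By TPM Angpt2 did not rise, at 1.79 to 3.16 in WT and 1.45 to 2.68 in stabilized cortex bound RNA. Ptprb was at 949 and 455 against 1291 and 1287 CPM (0.88 ± 0.38, adjusted p = 0.21) and Tek at 304 and 132 against 272 and 288 CPM (0.36 ± 0.36, adjusted p = 0.608). Both were called without replicate 1 of the WT, the higher of its pair (Ptprb at 1.496, adjusted p = 0.0159, and Tek at 1.08, adjusted p = 0.0384), and without replicate 2 Tek turned to -0.10. With an offset for gene length Tek was at -0.41. Angpt1 was at 2.63 and 6.05 against 4.66 and 6.93 CPM. Replicate 2 of the WT cortex bound RNA was the lower of its pair for both receptors and Ptprb.

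**Figure D3:**
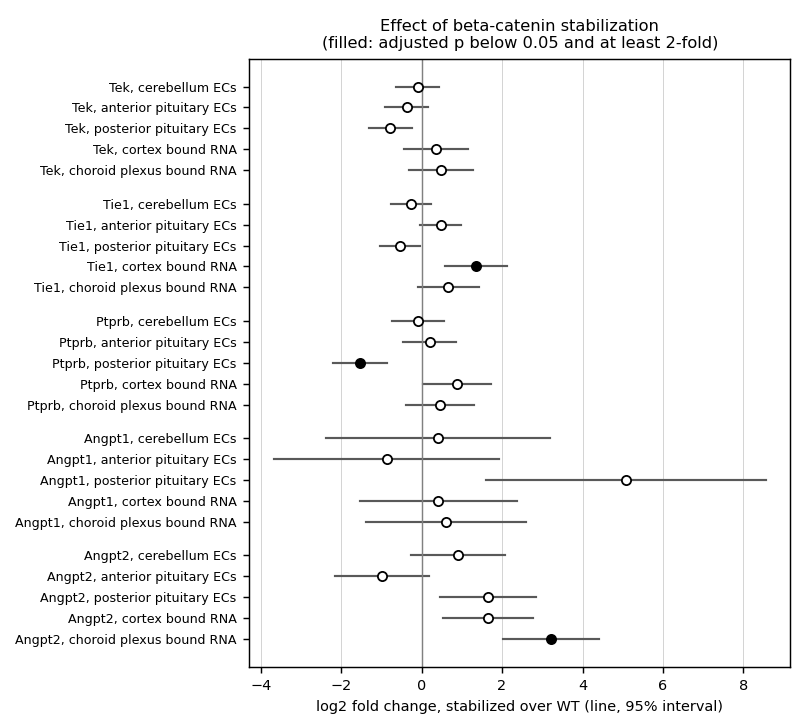
Log2 fold change, stabilized over WT, of each gene in the 5 EC comparisons; points are edgeR estimates and lines 95% intervals. These intervals, which are not adjusted for the number of genes, leave out 0 for all 5 genes in posterior pituitary ECs, for Tie1, Angpt2 and Ptprb in cortex bound RNA and for Angpt2 in choroid plexus bound RNA, and the called ones are Ptprb in the posterior pituitary (-2.20 to -0.86), Tie1 in the cortex (0.57 to 2.11) and Angpt2 in the choroid plexus (2.02 to 4.42).

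Differences in response between tissues were tested as interactions, and none of the 5 genes passed for any of the 4 pairs of tissues by edgeR. The share of all genes called was 0.128% for posterior minus anterior pituitary, 0.927% for posterior pituitary minus cerebellum, 0.519% for anterior pituitary minus cerebellum and 2.15% for choroid plexus minus cortex. At an unadjusted p under 0.05 there were 4, 2, 2 and 0 genes, and DESeq2 called 4, 1, 0 and 0. The shares above are those of edgeR's adjusted test, so they give no background for these counts. Ptprb responded lower in the posterior than the anterior pituitary by -1.73 ± 0.43 (adjusted p = 0.213) and than the cerebellum by -1.44 ± 0.43 (adjusted p = 0.173). Angpt2 responded higher in the posterior than the anterior pituitary by 2.63 ± 0.77 (adjusted p = 0.309). Without replicate 1 of the WT posterior pituitary ECs both differences between the lobes passed, Angpt2 at 3.75 (adjusted p = 0.0083) and Ptprb at -2.05 (adjusted p = 0.0068), as did Ptprb between posterior pituitary and cerebellum at -1.76 (adjusted p = 0.0149). Without replicate 1 of the stabilized anterior pituitary ECs the Angpt2 difference between the lobes passed as well (2.87, adjusted p = 0.0352). Without the library with conflicting labels, replicate 2 of that group, it was 2.44 (adjusted p = 0.109) and that of Ptprb -1.71 (adjusted p = 0.0933). For anterior pituitary minus cerebellum Tie1 was then at 0.58 and Angpt2 at -1.69, neither called. For choroid plexus minus cortex the Angpt2 difference was 1.57 (95% interval -0.01 to 3.15, adjusted p = 0.287). The posterior pituitary comparison and both others in sorted ECs share libraries. Marker responses differed too. For posterior minus anterior pituitary 2 of 10 mural markers were lower (median -1.69), and microglia markers had a median of 3.05 with none called. For posterior pituitary minus cerebellum 1 of 7 endocrine, 1 of 5 fibroblast, 1 of 5 macrophage and leukocyte and 1 of 10 mural markers were higher. Endothelial markers had medians of -0.44 and -0.31 with none called. The part of these markers was not tested.

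In the surrounding cells none of the 5 genes was called by edgeR or DESeq2 in any of the 5 comparisons of stabilized with WT GFP-negative cells or input RNA, where 0.76%, 0.0408% and 0.133% of all genes were called in GFP-negative cells of cerebellum, anterior and posterior pituitary, and 11.8% and 0.106% in cortex and choroid plexus input. At an unadjusted p under 0.05 there was 1 gene in posterior pituitary GFP-negative cells, Angpt1 (2.22 and 4.38 against 10.1 and 10.1 CPM, log2 fold change 1.62, adjusted p = 0.484), and 1 in cortex input, Tek (5.62 and 4.45 against 3.23 and 2.39 CPM, log2 fold change -0.85, adjusted p = 0.0804). In its main source among these samples, GFP-negative cells of the anterior pituitary, Angpt1 was at 365 and 301 CPM in WT and 154 and 121 in stabilized mice, without overlap (-1.27 ± 0.69, adjusted p = 0.771).

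Genes known to act with Tek were followed as a list of 25, of which 24 were tested in sorted and 23 in RiboTag samples (the ligand Angpt4 was not tested in either, the adaptor Dok2 not in RiboTag). In GFP-positive over GFP-negative WT cells 4 were higher and 3 lower in the cerebellum, 6 and 3 in the anterior and 5 and 3 in the posterior pituitary. These are 7, 9 and 8 of 24 beside 11.3%, 11.3% and 14.5% of all genes by edgeR. DESeq2 called 12, 10 and 11, for which these edgeR shares are no background. Nos3, the endothelial nitric oxide synthase downstream of Akt, was higher in ECs of the cerebellum (7.16 ± 1.19 on the log2 scale), the anterior pituitary (3.53 ± 1.001, a call lost in 2 of 11 alternatives) and the posterior pituitary (4.28 ± 1.04, lost in 1 of 11). Pak1, a kinase recruited through Dok2, was lower in ECs of all 3 tissues, by -4.69, -3.39 (a call lost in 3 of 11 alternatives) and -5.64 (lost in 1 of 11). Itga5, the fibronectin receptor chain that can associate with Tek, was higher in anterior (6.93) and posterior (7.42) pituitary ECs, and its partner Itgb1 in cerebellar (2.18) and posterior pituitary ECs (1.36, a call lost in 3 of 11 alternatives). The kinase Akt2 was lower in cerebellar ECs (-2.21, lost in 5 of 11). The adaptor Grb7 was listed at 0 TPM in all 4 WT EC libraries of the pituitary and called lower there, against 2.2998 and 4.30 TPM in GFP-negative cells of the anterior and 2.85 and 18.2 of the posterior lobe. The Grb7 call was lost in 5 of 11 alternatives in the anterior and in 4 of 11 in the posterior lobe. The adaptor Grb14 was at 0 and 0.07 TPM in posterior pituitary ECs against 7.28 and 10.3 in GFP-negative cells. It was called lower there (lost in 1 of 11 alternatives) and in the anterior pituitary (-3.31, a call lost in 3 of 11 alternatives). In bound over input RNA 4 were higher and 1 lower in the cortex (Nos3 by 3.70, Itgb1 by 2.15, Itga5 by 2.12, a call lost in 4 of 11 alternatives, and Shc1 by 1.82), and 2 in the choroid plexus (Nos3 by 2.86 and Tnip2 by 2.297, lost in 1 of 11), beside 11.6% and 15.3% of all genes, and DESeq2 called 5 and 3.

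Grb14, an adaptor that binds activated receptor kinases including Tek, responded in both lobes. In WT ECs it was at 114 and 71.5 CPM in the cerebellum, 1.17 and 1.38 in the anterior pituitary, and 0 and 0.12 in the posterior pituitary. In stabilized ECs Grb14 was at 160 and 201, 7.33 and 20.4, and 40.003 and 43.9 CPM. It rose in the anterior pituitary (3.43 ± 0.58, adjusted p = 0.0211), also without the library with conflicting labels (2.53, adjusted p = 0.0019), but not past the threshold without replicate 1 of the WT (3.33, adjusted p = 0.0643), with the offset for gene length (2.63, adjusted p = 0.103) or with only the groups compared (3.44, adjusted p = 0.201). In the posterior pituitary it rose from 2 to 1726 counts over the pair, a ratio of 1019 (95% interval 282 to 8421; adjusted p = 7.66e-05). Its response in the posterior lobe exceeded that in the anterior lobe by 6.33 ± 1.03 (adjusted p = 0.0339), a call kept in 13 alternatives and lost in 1. Without the library with conflicting labels this value was 7.25. The posterior response of Grb14 exceeded that in the cerebellum by 8.80 ± 1.005 (adjusted p = 0.00106). No other gene of the list passed an interaction test by edgeR. For anterior pituitary minus cerebellum 5 of the list had an unadjusted p under 0.05 and DESeq2 called 3, and for choroid plexus minus cortex bound RNA these numbers were 4 and 0. In all, stabilization changed 0 of 24 list genes in cerebellar ECs by edgeR (1 at an unadjusted p under 0.05, 1 by DESeq2), 1 of 24 higher in the anterior pituitary, 1 higher and 1 lower in the posterior pituitary (the lower one Ptk2, focal adhesion kinase, by -1.13, adjusted p = 0.0455), 1 lower of 23 in cortex bound RNA (Pak1 by -1.43, adjusted p = 0.0405) and 0 in choroid plexus bound RNA by edgeR (4 at an unadjusted p under 0.05, 0 by DESeq2). Over all genes the shares called in these 5 comparisons were 0.648%, 0.458%, 1.79%, 6.32% and 0.852%, so that the 1 of 23 in cortex bound RNA is no more than the share of all genes called there. The Ptk2 call was lost in 5 of 10 alternatives and the Pak1 call in 4 of 10. Among these, the Ptk2 call was lost without replicate 2 of the WT (adjusted p = 0.252) or either stabilized library (0.417 and 0.219), and the Pak1 call without replicate 2 of the WT (0.0987) or either stabilized library (0.0816 and 0.202). The median of the list was between -0.14 and 0.32 in these comparisons, and that of all genes between -0.09 and 0.06.

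Among WT tissues Grb14 (6.18) and Nos3 (2.67) were higher in cerebellar than anterior pituitary ECs, 2 of 24 list genes beside 5.26% of all genes, and DESeq2 called 3 of the list there. Between the lobes edgeR called Grb14, 1 of 24 beside 0.994% of all genes (a call lost in 1 of 10 alternatives, and DESeq2 called 2 of the list), at 39 and 44 counts in anterior against 0 and 2 in posterior pituitary ECs (adjusted p = 0.0209). Grb14 (3986 and 1854 counts against 0 and 2) and Nos3 (1.83) were higher and Itga5 lower (-1.61, a call lost in 3 of 10 alternatives) in cerebellar than posterior pituitary ECs, 3 of 24 beside 4.4% of all genes, and DESeq2 called 4. In cortex over choroid plexus bound RNA, where 29.7% of all genes were called, Pak1 (5.25) and Grb2 (2.13) were higher and Svep1 (-3.50, a call lost in 5 of 10 alternatives) was lower. These are examples, and other genes of the list were called there in both directions, among them Grb14 (-1.30 ± 0.31, adjusted p = 0.0115), which is named for its response above. Svep1 is an extracellular protein that binds Tie1.

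By the Pearson correlation of log2(TPM + 1) over the 24 sorted libraries, among 11353 candidate genes, the patterns most like Tek were those of Cdh5 (r = 0.99, and 0.93 over the 16 RiboTag libraries), She (0.99 and 0.98) and Gpr4 (0.99 and 0.93). For Tie1 they were Mmrn2 (0.99 and 0.99), Cd93 (0.99 and 0.99) and Kdr (0.99 and 0.97), and for Ptprb She (0.99 and 0.99), Sema3g (0.99 and 0.9952) and Cyyr1 (0.99 and 0.95). For Angpt2 they were Selenop (0.91 and 0.57), Rhbdf1 (0.89 and 0.79) and Pltp (0.88 and 0.64). For Angpt1 the 3 nearest were Gm23134 (0.86 and 0.16), Qpct (0.86 and 0.71) and Fetub (0.86 and -0.34), so that only Qpct was also near in RiboTag. These values are descriptions: libraries fall into EC and non-EC sets, and a difference between these sets is shared by all points.

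ATAC-seq marks open chromatin by insertion of a transposase, and a peak is a stretch where insertions exceed the local background, given as a fold enrichment. Within 10 kb of each gene the 12 EC libraries had 17 separate regions at Tek, 2 at Tie1, 13 at Ptprb, 7 at Angpt2 and 2 at Angpt1, counting peaks with a fold over 2 and a -log10 q over 2. The region over the Tie1 start was listed in 12 of 12 libraries, with a fold of 9.84 to 18.6. At Tek 3 regions were in all 12, over the start (3.82 to 5.92), in the first 10 kb of the gene at +7.2 kb (9.68 to 18.5) and over coding exons at +91.0 kb (6.41 to 14.0). Ptprb also had 3, among them that at the start of Ptprb-201, +25.9 kb from the gene's first start (6.55 to 16.2). At Angpt1 each of the 2 regions was listed in 1 library of stabilized cerebellar ECs only. Reads from Tek regulatory DNA in the Tie2-GFP transgene cannot be told apart from those of the Tek gene itself, and which stretches the transgene holds is not given in the sources used here.

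A peak was counted as gained where it was listed in both stabilized and neither WT library of a tissue, and as lost in the reverse case. In posterior pituitary ECs 3 of 5 genes had a gained region (Tek, Angpt2 and Ptprb) and 1 a lost region (Tek), beside 25.9% and 1.29% of 14590 protein-coding genes. In anterior pituitary ECs 1 had a gained region (Tek) and 1 a lost region (Ptprb), beside 10.6% and 7.1%. In cerebellar ECs 2 had a gained region (Angpt2 and Ptprb) and 0 a lost region, beside 20.6% and 2.01%. The window grows with the gene, and these shares cover genes of all lengths, so they are not matched for length. Tek spans 135688 bases, Ptprb 114013 and Angpt2 51300. Angpt1 and Tie1, without a gain, span 252255 and 18871. At a fold over 4 and a -log10 q over 5 anterior pituitary ECs had 2 gained and 0 lost, beside 10.9% and 2.66%. Cerebellar ECs then had 1 and 0, beside 15.0% and 1.56%. Leaving out 1 library gave 2 gained and 1 to 3 lost in the anterior pituitary, and 2 to 4 gained and 0 to 2 lost in the cerebellum. The number of listed peaks was itself lowest in WT posterior pituitary libraries, 26402 and 25684, against 36358 and 51666 in the stabilized ones, and cerebellar libraries had 31797 and 29163 in WT against 43413 and 40751 in stabilized ECs. The part of these numbers in the gains was not tested. A region absent from a list is one below the threshold, not one shown to be closed.

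At 3 regions gained in pituitary ECs both WT cerebellar libraries also had a peak. The intron of Tek at +26.1 kb (chr4:94765141-94765610) was listed in neither lobe in WT. It had a fold of 7.93 and 9.36 in stabilized anterior and 6.51 and 3.92 in stabilized posterior pituitary ECs, 3.80 and 7.12 in WT cerebellar and 11.8 and 10.2 in stabilized cerebellar ECs. The region upstream of Ptprb at -4.5 kb (chr10:116270347-116271628) was in neither WT posterior pituitary library and at 4.05 and 3.56 in the stabilized ones. It stood at 5.98 and 6.24 in WT and 7.53 and 7.03 in stabilized cerebellar ECs, at 4.93 and 4.89 in stabilized anterior pituitary ECs and at 3.43 in 1 of the WT anterior pituitary libraries. In the same posterior pituitary ECs Ptprb RNA was lower. The intron of Angpt2 at +29.7 kb (chr8:18711620-18712159) was likewise in neither WT posterior pituitary library and at 4.99 and 5.09 in the stabilized ones. It was strongest in anterior pituitary ECs, 7.39 and 10.6 in WT and 9.54 and 13.4 in stabilized, and stood at 3.20 and 2.98 in WT cerebellar ECs.

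The 151 bases around the strongest summit of each of these 3 regions are printed because the peak lists of the genotypes differed there (GRCm38.p6, plus strand, with no regard to the gene's own strand). Capitals mark matches on either strand to ATCAAAG, a motif of the TCF/LEF factors that carry beta-catenin to DNA, and to the ETS core CAGGAA.
Tek intron, chr4:94765323-94765473: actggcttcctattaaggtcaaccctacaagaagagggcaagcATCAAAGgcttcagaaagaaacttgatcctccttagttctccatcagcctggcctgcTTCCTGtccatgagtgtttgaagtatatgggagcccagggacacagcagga
Ptprb upstream, chr10:116270624-116270774: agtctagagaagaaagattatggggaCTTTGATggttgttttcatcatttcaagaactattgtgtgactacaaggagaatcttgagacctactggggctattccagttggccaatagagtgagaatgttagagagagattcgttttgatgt
Angpt2 intron, chr8:18711833-18711983: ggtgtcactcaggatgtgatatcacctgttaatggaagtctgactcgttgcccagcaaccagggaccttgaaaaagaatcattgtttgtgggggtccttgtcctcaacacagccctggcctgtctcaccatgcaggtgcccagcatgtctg
The Tek window holds ATCAAAG at bases 44 to 50 and CAGGAA in reverse at bases 101 to 106, counted from the left end. The Ptprb window holds ATCAAAG in reverse at bases 27 to 33, and the Angpt2 window holds none of the motifs searched in the promoters, on either strand. Over the genome ATCAAAG was in 8.63% of 2792 windows gained in anterior and 5.59% of 7598 gained in posterior pituitary ECs, and in 2.74% of windows listed in both WT cerebellar libraries. Either TCF/LEF motif was in 17.8% and 12.0% of the gained windows and in 5.83% of the WT cerebellar ones. The ETS core CAGGAA was common, in 35.4% and 40.9% of the gained windows and in 24.6% of the WT cerebellar ones. A match is a description of these letters and says nothing about binding.

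**Figure D4:**
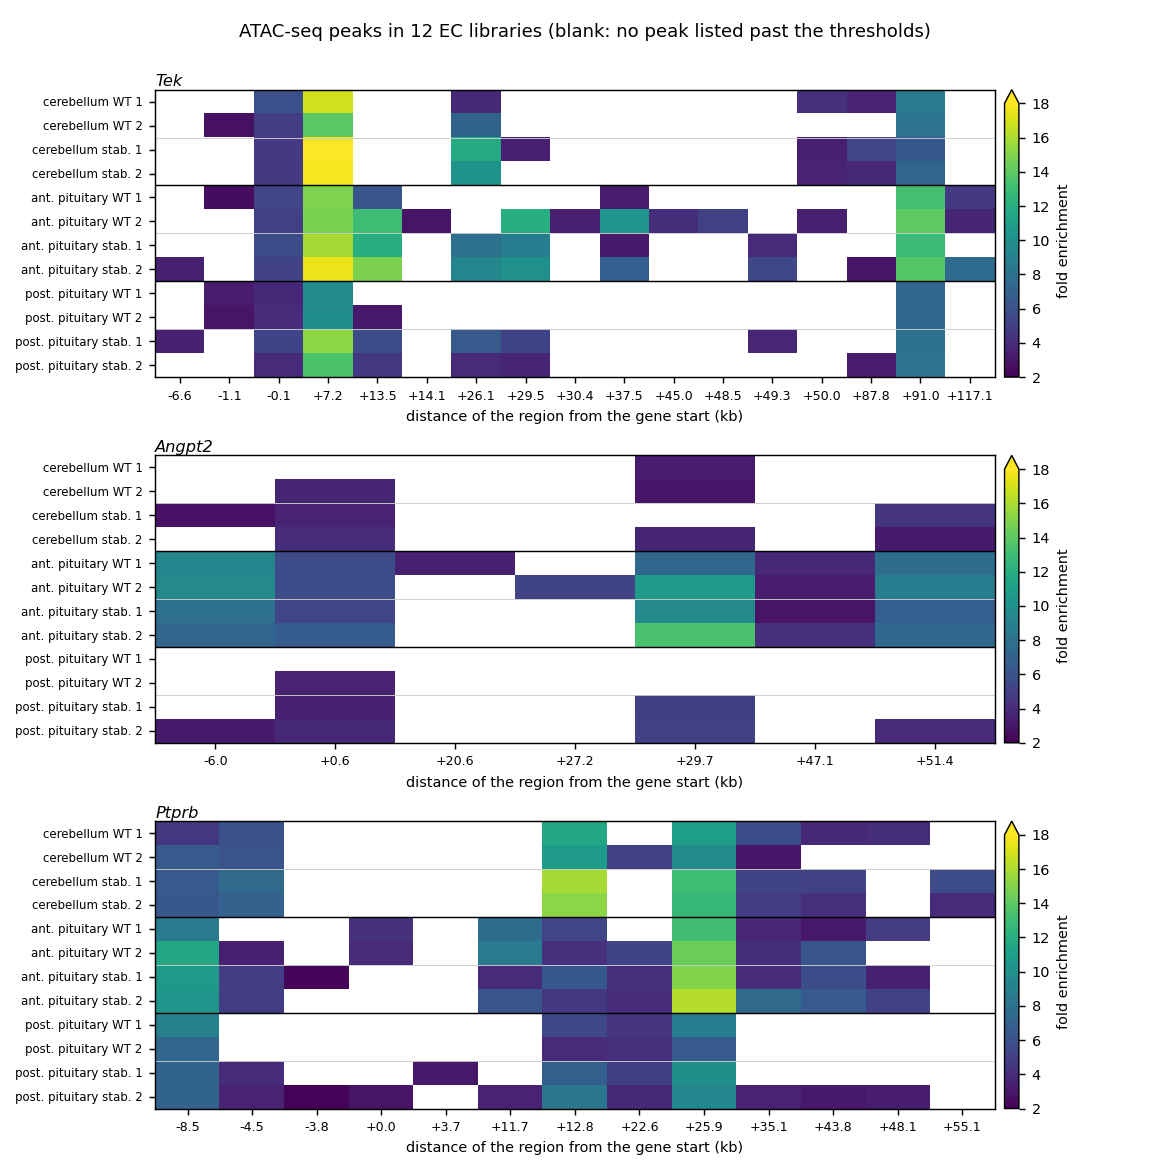
Fold enrichment (colour, capped at 18) of the ATAC-seq regions at Tek, Angpt2 and Ptprb in 12 EC libraries (rows), by distance from the gene start in kb (columns); blank means no peak past the thresholds. The Tek column at +26.1 kb, the Ptprb column at -4.5 kb and the Angpt2 column at +29.7 kb are blank in both WT posterior pituitary rows and filled in both stabilized ones.

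The other changes at these genes were a Tek intron region at +29.5 kb gained in posterior pituitary ECs (5.21 and 3.66) and listed in 1 WT anterior pituitary library at 12.0, and one at +49.3 kb gained in anterior pituitary ECs (3.90 and 5.46). The region upstream of Tek at -1.1 kb was lost in posterior pituitary ECs (3.21 and 2.83 in WT), and that at the start of the shorter Ptprb transcripts was lost in anterior pituitary ECs (4.25 and 3.95 in WT). In cerebellar ECs the peaks gained were in intronic sequence of Angpt2, 850 bases inside the gene (3.58 and 3.45, with a neighbouring WT peak of 3.64 in 1 library), at the end of Angpt2 (4.40 and 3.17), and in a Ptprb intron at +55.1 kb (5.74 and 3.90). At Angpt2, 5 of its 7 regions were listed in all 4 libraries of anterior pituitary ECs. At the 4 of these regions that were also listed in another tissue, the fold was 5.32 to 13.4 in anterior pituitary ECs and at most 5.09 elsewhere. The anterior pituitary lists were also long, with 45518 to 60243 peaks past the thresholds against 29163 to 43413 in the cerebellum and 25684 to 51666 in the posterior pituitary. The longest posterior list, replicate 2 of the stabilized ECs, lay within the anterior range. The part of list length in these counts was not tested.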

How the data were processed

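RNA-seq, RiboTag and ATAC-seq libraries were used as deposited. For the RNA libraries, the authors deposited estimated counts, TPM and effective lengths per transcript from Salmon 0.10.2 on an mm10/GRCm38 transcriptome, made from single-end reads of amplified cDNA, each library alone. For ATAC-seq, the authors deposited peak lists made per library with Bowtie2 2.3.2, Picard and MACS2 2.1.1.20160309. Those lists give a fold enrichment over the local background (a ratio) and p and q as −log10, and the deposited score column was not used. Tools and versions are those of the submitters' processing notes and the study's methods.

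Estimated counts and TPM were summed per gene with GENCODE M21, to which 130338 of 130740 transcripts matched. The rest held 0.0588 to 0.385% of the counts of a library and was left out. Sums were rounded and tested with edgeR 4.0.16 (R 4.3.3; quasi-likelihood test, TMM normalization, filterByExpr, 1 coefficient per group), with Benjamini-Hochberg adjustment over all genes of a fit. There were 6 fits, of 8 to 24 libraries and 16085 to 21343 genes, so CPM of one library differ slightly between fits. SEs were derived from the F statistic of each test. The shares of all genes called are edgeR's, and counts by DESeq2 or at an unadjusted p have no such share beside them. The study's own program, EBSeq, was not used here. Its false discovery rate and fold thresholds were kept, but not its minimum of 10 TPM or its demand for EC enrichment. With 2 replicates in each group, the precision of a difference rests on the spread shared across groups. Intervals of count ratios (exact, 95%) and the floor of 3 counts for a count of 0 cover counting error only.

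Peaks past a fold of 2 and a −log10 q of 2 were merged where they overlapped in a library, and peaks sharing at least 1 base counted as shared. The window was the gene body plus 10 kb.

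The 5 genes, the list of 25 and the tests were chosen with earlier results of these data known. Named beyond the 5 were up to 4 called genes of the list per comparison with the largest change (values of Nos3, Itgb1 and Grb14 beyond that were added after they were seen), and the 3 genes most correlated with each of the 5 among those with a mean of at least 10 TPM in a sorted group. Scripts were tested on simulated data in which 200 genes were changed 4-fold. Of these, 36% were called for stabilized over WT posterior pituitary ECs and 58% for choroid plexus bound RNA. A gene that was not called is therefore not shown to be unchanged. Alternatives were DESeq2 1.42.0, RLE normalization, no filter, an offset for gene length, fits of only the groups compared, a replicate block, other peak thresholds and windows, and leaving out each replicate. Protein sequences were not used here, and a gene of the list and one of the markers are not reported here.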

Additional observations from a re-analysis of the deposited data

How the results depend on the processing

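Each of 69 differences of the 5 genes was recomputed under other settings. They are all those between EC and other fractions in WT and between genotypes in sorted ECs or bound RNA. From the remaining comparisons only those called or with an unadjusted p under 0.05 were taken. Many of the 69 were not called as reported, and for these keeping their side of the threshold asks little. The calls that were lost are named below. With RLE normalization 68 kept their direction and side of the threshold, without a filter on low counts 59, with DESeq2 56, with an offset for gene length 62 and with only the groups compared 60. Scaling moved the median of all genes by over 0.1 only in cortex bound over input RNA (up to 0.33), in cerebellar GFP-positive over GFP-negative cells with the length offset (0.119) and in cerebellar GFP-negative cells (0.117 to 0.173). Except where a value or the construction of an alternative shows it, the cause of a change was not tested. Depth limits the lowest levels: 0 to 3 counts lay behind Angpt1 in WT posterior pituitary ECs.

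With only the groups compared, which leaves fewer libraries to estimate the spread, calls were lost for Angpt1 (-5.92) and Angpt2 (2.33) in posterior pituitary GFP-positive over GFP-negative cells, Ptprb in stabilized posterior pituitary ECs (-1.50), Tie1 (-1.37) and Angpt1 (7.06) in cerebellum over posterior pituitary, Ptprb between the lobes (-2.09), Angpt2 in cortex bound over input (2.13) and Tie1 in stabilized cortex bound RNA (1.39). With the length offset calls were lost for Ptprb in stabilized posterior pituitary ECs (-1.48), Angpt1 in cerebellum over posterior pituitary (8.196), Angpt2 in cortex bound over input (1.58), Tie1 in stabilized cortex bound RNA (1.46) and Angpt2 in stabilized choroid plexus bound RNA (3.70), and Tek in stabilized cortex bound RNA turned to -0.41. Angpt2 was called without a filter in stabilized posterior pituitary ECs (1.67) and cortex bound RNA (1.66). DESeq2 called it in both (1.67 and 1.62), and Angpt1 in stabilized posterior pituitary ECs (5.16).

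Calls of the 5 genes in stabilized ECs went from 1 to 2 without a filter, 3 with DESeq2, and 0 with the length offset or only the groups compared. In stabilized bound RNA they went from 2 to 0 with the offset and 1 with only the groups compared. Across WT EC tissues they went from 4 to 7 without a filter or with DESeq2 and to 1 with only the groups compared. Differences in response went from 0 to 4 without a filter and 5 with DESeq2, and calls in surrounding cells from 0 to 1 without a filter.

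Leaving out 1 library in turn, the lowest and highest values were 1.25 and 3.11 for Angpt2 in posterior pituitary GFP-positive over GFP-negative cells, 1.64 and 2.71 for Angpt2 in cortex bound over input, and 6.27 and 10.6 for Angpt1 in cerebellum over posterior pituitary. In stabilized over WT ECs they were -0.30 and 0.068 for Tek and -1.59 and 1.22 for Angpt1 in the cerebellum, -1.47 and 0.24 for Angpt1 in the anterior pituitary, and 1.06 and 2.78 for Angpt2 and -1.84 and -1.07 for Ptprb in the posterior pituitary. In stabilized over WT bound RNA they were -0.10 and 1.08 for Tek, 0.90 and 2.01 for Tie1, -0.067 and 1.16 for Angpt1 and 0.46 and 1.496 for Ptprb in the cortex, and 2.81 and 3.87 for Angpt2 in the choroid plexus. Calls ranged from 0 to 2 in stabilized ECs, 1 to 4 in stabilized bound RNA, 3 to 7 across WT EC tissues, 0 to 3 for differences in response and 0 to 1 in surrounding cells. The highest counts came without replicate 1 of the WT posterior pituitary ECs (2, 7 and 3) or of the WT cortex bound RNA (4). The lone sample left was assumed to vary like the other groups.

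Genes with a gained peak went from 2 to 1 in cerebellar and from 1 to 2 in anterior pituitary ECs at a fold over 4 and a -log10 q over 5 (15.0% and 10.9% of all genes) and from 3 to 2 in posterior pituitary ECs (22.2%). Those with a lost peak went from 1 to 0 in both lobes, beside 2.66% of all genes in the anterior and 0.822% in the posterior. With 100 kb around each gene, 4 of 5 had a gained peak in cerebellar ECs, beside 52.8% of all genes. In posterior pituitary ECs 3 of 5 then had one, beside 60.7%, and in anterior pituitary ECs 1 of 5, beside 32.6%. A lost peak was then found at 0 genes in the cerebellum (7.09%), 1 in the anterior (22.5%) and 1 in the posterior lobe (4.57%). Leaving out 1 library gave 2 to 4 gained and 0 to 2 lost in cerebellar ECs, 2 gained and 1 to 3 lost in anterior pituitary ECs. With 1 library fewer the rule asks less of every gene. The shares of all genes in these runs are not given here, so these counts have no background.

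Replicate numbers are shared between groups, but libraries with the same number in a preparation deviated together only weakly (r from -0.0038 to 0.091 in 6 sorted pairs and 0.049 to 0.143 in 4 RiboTag pairs). With the replicate block, 68 of the 69 differences kept their side of the threshold, and Tie1 in cortex over choroid plexus WT bound RNA was called (-1.05, adjusted p = 0.0367). Of the named genes of the list, Svep1 lost its call between cortex and choroid plexus under that block (adjusted p = 0.0558), as it did in 5 of 10 alternatives in all. A block within each preparation, chosen after seeing the data, left all 25 differences it applies to as they were.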
